A study of Rattus norvegicus with 21 samples.

Results

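The regions described here are 1148 genomic tiles of 250 bp in rat dorsal striatum that hold many CpGs and yet are neither unmethylated nor fully methylated. A tile was taken if it lay on chromosomes 1 to 20, had at least 2 CpGs with reads in each of the 21 libraries, held 8 or more distinct CpGs over all libraries, and had a mean methylation level of 35 to 65% in the 6 unlesioned libraries. The level of a tile in a library is the percent of its bisulfite reads that still show C, summed over its CpGs. The 1148 tiles are 3.23% of the 35509 tiles with 8 or more CpGs and 0.820% of the 140054 tiles measured in every library. Since the unlesioned levels chose the tiles, those levels are given as a description. The working name of these tiles calls them imprint-like. Parental origin was not measured, and few of them had all their well-read CpGs at an intermediate level, so they are called intermediate dense tiles.

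Bisulfite turns unmethylated cytosine into a base read as T, while methylated cytosine is still read as C. All rats were wild-type Sprague Dawley animals of 120 days. The unlesioned saline group has 6 libraries, and the labels do not say which hemisphere or which operation these samples had. The lesioned saline group has 8 libraries and the lesioned L-DOPA group 7. Both lesioned groups received the toxin 6-hydroxydopamine (6-OHDA) in the left medial forebrain bundle, which destroys dopamine fibres, and 3 weeks of recovery. L-DOPA, the precursor of dopamine, was then given at 6 mg/kg daily for 7 days to produce dyskinesia, with dissection 3 h after the final dose. Dissected striatum mixes neurons, glia and vessels, so an intermediate level cannot be assigned to a share of cells or to a share of alleles.

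CpGs are the main targets of DNA methylation in mammals, and most of the genome's CpGs are methylated. Stretches rich in CpGs, called CpG islands, often lie at gene starts and are mostly free of methylation. At imprinted control regions the mark is set in only one parent's germ line, so in every somatic cell one allele is methylated and the other is not, and reads from bulk tissue then mix both. An intermediate level in bulk can also come from cell types that differ, from neighbouring CpGs that differ, or from gradual methylation of each copy.

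Gene starts were placed on the tiles by the spacing of their CpGs, since the reads are on the rn5 build and the promoter sequences are from RefSeq on GRCr8. Of 33469 promoters of 300 bases, 15918 had 8 or more CpGs, 7218 could be placed at 1 position, and 7084 of these (98.1%) fell on the same chromosome in both builds. Among the intermediate dense tiles, 25 (2.18%) overlapped a placed promoter, against 26.8% of the dense tiles under 35% and 1.33% of those over 65%. A promoter could be placed only where at least 8 listed CpGs matched. These shares therefore also depend on how many CpGs were listed, and the part of this was not tested. The 25 tiles carry the promoters of 27 genes. Below are the 250 bases before the start of 4 of these genes, from RefSeq (GRCr8), written in the direction of transcription. They were chosen because each shows another arrangement of CpG levels inside an intermediate tile. Capitals mark the CpGs that were listed in at least 1 library and lie in the intermediate tile, and the positions are chr4:33808776-33809025 (plus strand) for Peg10, chr1:144423496-144423745 (plus) for Alpk3, chr10:30919528-30919777 (plus) for Sox30 and chr8:69044617-69044866 (minus) for Senp8.
Peg10: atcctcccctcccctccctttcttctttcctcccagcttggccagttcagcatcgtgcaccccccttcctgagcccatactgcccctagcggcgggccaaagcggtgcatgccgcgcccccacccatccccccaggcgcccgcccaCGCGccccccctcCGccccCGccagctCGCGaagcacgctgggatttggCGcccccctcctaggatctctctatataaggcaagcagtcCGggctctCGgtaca
Alpk3: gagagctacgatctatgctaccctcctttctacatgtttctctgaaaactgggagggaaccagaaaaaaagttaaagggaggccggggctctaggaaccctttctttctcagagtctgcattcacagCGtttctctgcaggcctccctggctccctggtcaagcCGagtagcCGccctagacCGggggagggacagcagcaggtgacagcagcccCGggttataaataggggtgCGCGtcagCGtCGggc
Sox30: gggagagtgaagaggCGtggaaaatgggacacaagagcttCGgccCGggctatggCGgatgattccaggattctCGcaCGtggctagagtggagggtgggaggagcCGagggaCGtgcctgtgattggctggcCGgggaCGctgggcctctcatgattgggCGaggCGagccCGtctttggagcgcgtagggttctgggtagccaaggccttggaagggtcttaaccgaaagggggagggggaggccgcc
Senp8: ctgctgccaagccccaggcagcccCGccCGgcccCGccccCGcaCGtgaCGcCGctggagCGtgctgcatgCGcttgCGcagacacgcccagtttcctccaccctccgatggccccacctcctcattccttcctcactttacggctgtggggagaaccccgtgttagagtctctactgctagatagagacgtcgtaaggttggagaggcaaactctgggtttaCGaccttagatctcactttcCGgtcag

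Peg10, a gene derived from a retrotransposon and expressed from the paternal allele, shares its divergent promoter with Sgce, the imprinted gene of epsilon-sarcoglycan. Their common tile is chr4:29704001-29704250 (rn5), with 20 listed CpGs of which 9 are in capitals in the Peg10 sequence. In the unlesioned group the level was lowest at 14.3%, with a median of 44.2% and a highest value of 51.9%. Lesioned saline libraries had 15.6%, 39.5% and 46.6% as lowest, median and highest, and L-DOPA libraries 14.4%, 36.5% and 54.6%. The groups overlap, and the low values come from 4 libraries: unlesioned saline 1 (14.3%), lesioned saline 2 (15.6%), L-DOPA 3 (19.6%) and L-DOPA 7 (14.4%). The other 17 libraries lay between 31.9% and 54.6%. The means were 40.8% ± 13.8 (SD, n = 6) in unlesioned, 37.7% ± 9.49 (n = 8) in lesioned saline and 33.9% ± 13.6 (n = 7) in L-DOPA libraries.

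Within the Peg10 and Sgce tile the levels differed little from CpG to CpG. The 10 CpGs with reads in all 21 libraries had mean levels of 30.1% to 39.8% over the libraries, 5 of them read on the forward strand and 5 on the reverse strand. The tile as a whole was at 36.5% on the forward and 35.7% on the reverse strand in the 15 lesioned libraries. The next measured tile on its right, inside the 2 tiles searched, stood at 38.5% in the lesioned libraries. At the edge of the tile another CpG, listed in 10 libraries at about 11 reads each, was at 96.2%. This tile is the one intermediate dense tile placed at the promoter of a gene from a list of 32 textbook imprinted genes. The list was written after the data were seen. Of the 32 genes, 27 were in the promoter table and 12 could be placed, on 25 tiles, and 23 of these tiles were under 20% in the unlesioned libraries. Igf2r, a receptor that clears the growth factor Igf2, was at 6.44% ± 2.13 and 5.74% ± 2.61 (SD, n = 6) in its 2 promoter tiles, and Dlk1, a Notch-family ligand, at 1.33% ± 0.445 and 3.61% ± 1.205. Control regions of many imprinted genes lie away from the promoter window searched, and the other 20 genes were not analysed here. Gnas, a gene of the list, had placed promoter tiles at chr3:178426001-178426500 and chr3:178473001-178473750 (rn5). Between them lie the runs chr3:178438501-178439000 (mean 47.8%) and chr3:178440501-178441000 (mean 42.7%), of 2 intermediate dense tiles each. No promoter was placed on these runs, and whether they belong to Gnas was not tested.

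**Figure D1:**
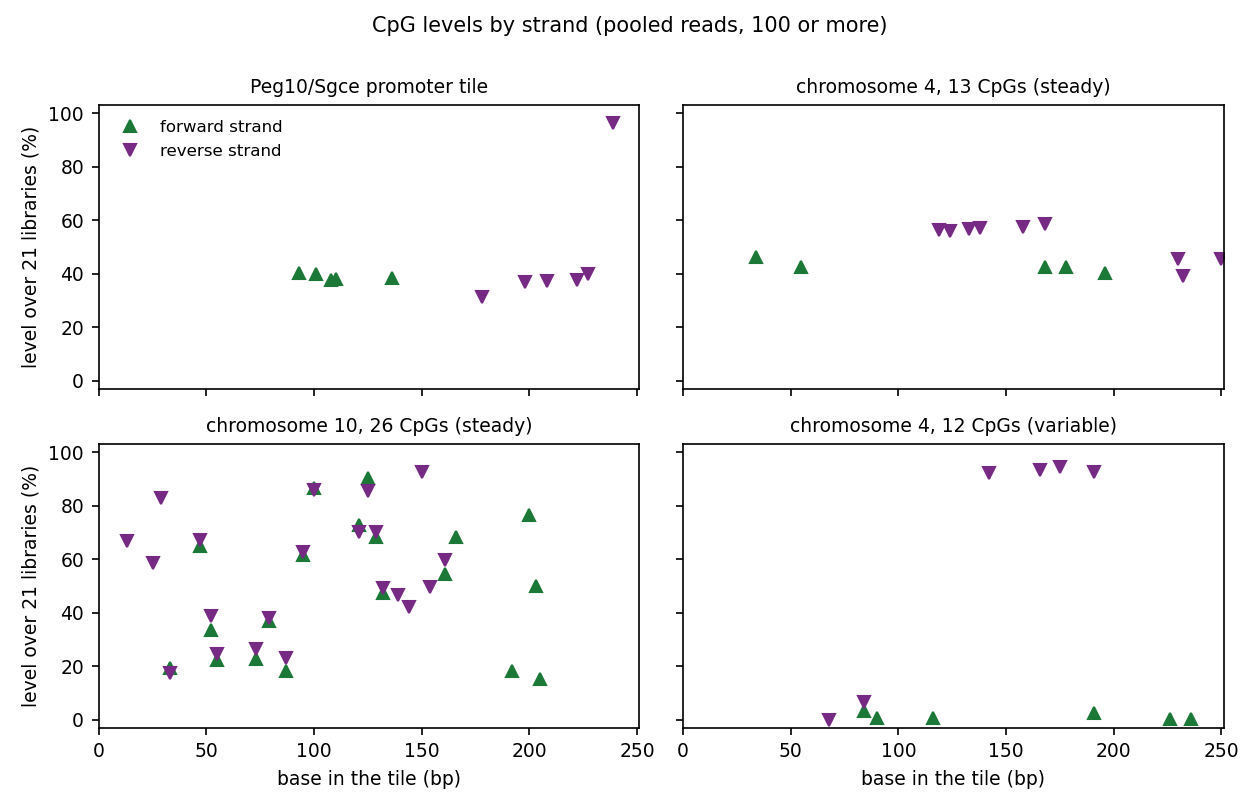
Methylation level of each CpG (vertical axis, %, reads pooled over 21 libraries, shown where a strand had 100 or more reads) against its base in the tile (horizontal axis, bp), for 4 tiles, with upward triangles for the forward and downward triangles for the reverse strand. The CpGs of the Peg10/Sgce tile with reads in all 21 libraries lie close together, from 31.3% to 40.4% of the pooled reads, those of the steady chromosome 10 tile spread from below 20% to above 90% on both strands, and those of the variable chromosome 4 tile sit near 0% on the forward and above 90% mainly on the reverse strand.

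Alpk3, a kinase of heart and skeletal muscle, has the start of its gene in the promoter tile whose libraries stayed closest to 50%, chr1:143827501-143827750 (rn5, 16 CpGs). Unlesioned libraries had 44.0%, 54.0% and 56.4% as lowest, median and highest, lesioned saline libraries 48.3%, 52.3% and 55.3%, and L-DOPA libraries 45.2%, 49.2% and 57.7%. All 21 libraries lie in a range of 13.8 points, while 2 other promoter tiles, at Eps8l2 (11.6 points) and LOC102550477 (9.35 points), had smaller ranges at levels farther from 50%, and the 3 groups overlap throughout. Its 16 CpGs did not share that level. They ran from 12.7% to 94.0% in the lesioned libraries, and 8 of them lay in 35 to 65%. The average of the Alpk3 tile is a mean over CpGs of different levels.

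Sox30, a transcription factor of the testis, lies beside the tile chr10:30895251-30895500 (rn5, 14 CpGs). Its levels were 39.9%, 57.3% and 58.0% (lowest, median, highest) in unlesioned, 46.7%, 52.7% and 71.5% in lesioned saline and 42.0%, 52.4% and 59.4% in L-DOPA libraries. In the lesioned libraries the measured tile on its left was at 76.5% and the one on its right at 3.51%, and the CpGs inside ran from 10.6% to 91.1%. The tile lies between a mostly methylated and a mostly unmethylated neighbour.

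Senp8, a protease that matures the ubiquitin-like protein NEDD8, starts in the tile chr8:64335501-64335750 (rn5, 13 CpGs), which the promoter of Myo9a, a myosin motor protein, overlaps too. Levels were 11.0%, 40.6% and 48.8% in unlesioned, 7.59%, 33.2% and 61.1% in lesioned saline and 3.85%, 37.5% and 53.5% in L-DOPA libraries. No CpG with reads in 18 or more libraries stood at an intermediate level except one. The CpG at base 5 was at 95.6% and the 9 CpGs from base 181 to base 230 at 1.05% to 2.21%. The exception, at base 15, averaged 50.2%, with 956 forward reads at 2.41% and 1055 reverse reads at 98.4%. The same CpG read as unmethylated from one strand and as methylated from the other.

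Other steady promoter tiles belonged to Znrf4, a RING-finger ubiquitin ligase, to Prim2, the large subunit of DNA primase, and to the uncharacterised loci LOC134480864 and LOC134483856. The Znrf4 tile was at 58.7% ± 3.64 in unlesioned, 57.0% ± 4.52 in lesioned saline and 54.0% ± 4.27 in L-DOPA libraries, with CpGs of 29.4% to 87.8%. Prim2 had 53.0% ± 8.72, 52.7% ± 4.27 and 55.9% ± 6.33 in the same order. LOC134480864 held 35 CpGs, the most of any promoter tile here, and ranged over 18.7 points. Of the 25 promoter tiles, 5 were steady, 8 variable and 12 in between.

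The variable promoter tiles included those of Lep (leptin), Egfl7 (a secreted factor of endothelial cells), Cavin4 (a coat protein of muscle caveolae) and Isca1 (iron-sulfur cluster assembly). Lep was at 51.4% in unlesioned, 50.4% in lesioned saline and 46.7% in L-DOPA libraries on average. The Isca1 tile had the widest range of all 1148 tiles, 80.1 points, from 0.0% in L-DOPA 7 to 80.1% in lesioned saline 4, at as few as 34 reads in a library. Inside it, the CpGs at bases 145, 147, 153 and 162 were at 96.0% to 98.5% while the CpG at base 157 between them was at 1.02%, all read on the forward strand. Tiles in between included Nobox, a homeobox gene of oocytes (35.8%, 34.7% and 33.2%), Haao, an enzyme of tryptophan breakdown (44.8%, 42.4% and 43.5%), and Tmprss12, a serine protease of the testis (63.6%, 65.5% and 59.8% in unlesioned, lesioned saline and L-DOPA).

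The hexamer TGCCGC, known as the core of the site bound by ZFP57, a zinc-finger protein that keeps imprints methylated, was searched on both strands of the 300-base promoters. It was found in 8 of the 27 promoters on intermediate tiles (29.6%) and in 3913 of all 33469 (11.7%). The hexamer itself holds a CpG and only promoters with 8 or more CpGs could be placed. Of the 15918 promoters with that many, 3370 (21.2%) held it. Peg10 and Sgce, whose windows overlap, are among the 8. A match is a description of letters, and no binding was measured.

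The 1148 tiles divided unevenly by how steady they were. In 155 tiles (13.5%), here called steady, every one of the 21 libraries lay between 35 and 65%. In 523 tiles (45.6%), called variable, the highest and lowest library differed by more than 30 points. The other 470 (40.9%) had a library outside 35 to 65% but a smaller range. The median range was 28.8 points, with a lowest of 5.11 and a highest of 80.1. Since the levels of 6 libraries chose the tiles, the 15 lesioned ones were also counted alone, and 206 tiles lay in 35 to 65% in all 15. The group mean stayed in 35 to 65% in 1033 tiles for lesioned saline and in 1011 for L-DOPA. Tiles at the same level but with 2 to 7 CpGs numbered 17857. Of these, 7.02% were steady and 64.2% variable, and they held a median of 179 reads per library against 596 in the intermediate dense tiles.

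**Figure D2:**
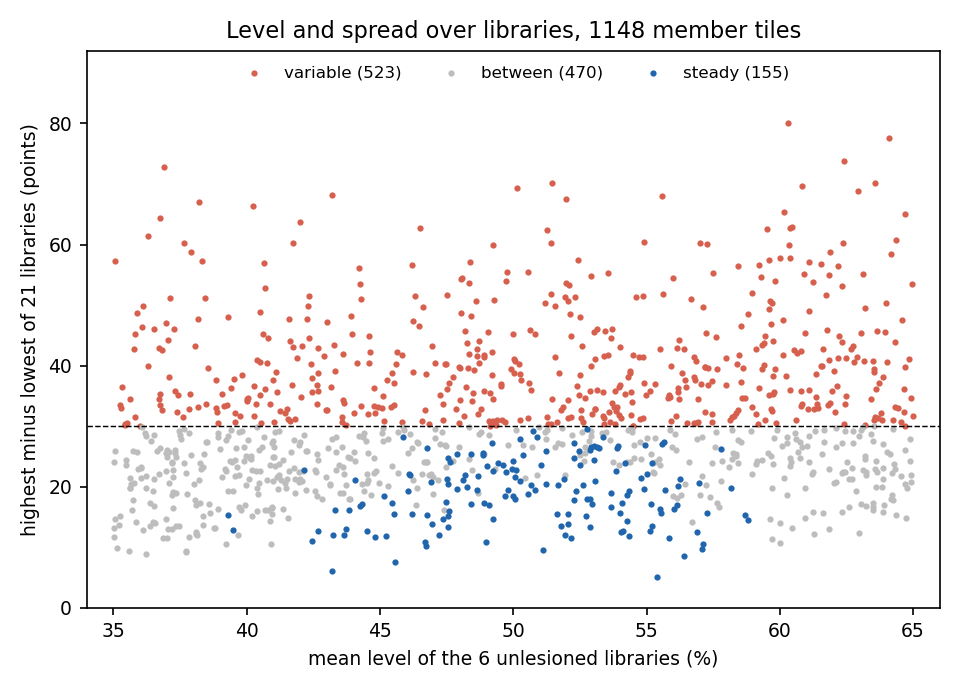
Mean level of the 6 unlesioned libraries (horizontal axis, %) against the difference between the highest and the lowest of the 21 libraries (vertical axis, percentage points) for each of the 1148 tiles, coloured by class, with a dashed line at 30 points. Steady tiles (155) lie at the bottom near the middle of the level axis, and the 523 variable tiles fill the space above the line at all levels.

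Fully intermediate tiles were few. CpG levels were taken over the 15 lesioned libraries, which had no part in the choice of tiles, where a CpG had 100 or more pooled reads. Every such CpG lay in 35 to 65% in 79 tiles (6.88%), and in 11 of the 155 steady tiles. In 489 tiles (42.6%) every CpG lay in the wider band of 20 to 80%. A further 144 tiles (12.5%), 25 of them steady, held both a CpG under 20% and a CpG over 80%. Steady tiles with evenly intermediate CpGs were these 11. Of the 523 variable tiles, 57 (10.9%) had every such CpG in 35 to 65%. The Peg10 and Sgce tile is in neither set: it is variable, and 9 of its 10 CpGs with enough reads lay in 35 to 65%. Since this tile of imprinted genes was missed, the 11 cannot tell how many tiles are imprinted. Of the 11, 9 had 7 or more CpGs with enough reads. None of the 11 lay in a run of neighbours.

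The tile chr4:153971751-153972000 (rn5) had the most CpGs with enough reads among the 11, with 13. Unlesioned libraries had 39.5%, 54.0% and 61.2% as lowest, median and highest, lesioned saline libraries 45.7%, 53.9% and 57.4%, and L-DOPA libraries 35.2%, 53.7% and 58.9%. Its CpGs ran from 39.6% to 56.2%, with 43.1% on the forward and 53.6% on the reverse strand. Another of the 11, chr5:163901751-163902000 (13 listed CpGs, 10 with enough reads), had CpGs of 44.1% to 59.5% and strands at 49.6% and 52.0%. The tile chr6:141056001-141056250 (8 CpGs) had CpGs of 43.3% to 53.7% and strands at 50.0% and 49.5%. In each of these 3 tiles the lowest library was unlesioned saline 1 or L-DOPA 7. The tile chr1:94461001-94461250 (11 CpGs) had its lowest value, 42.5%, in unlesioned saline 6 and its highest, 64.1%, in lesioned saline 6.

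The steadiest tile by distance from 50% was chr5:150706251-150706500 (16 CpGs). Its levels were 49.8%, 51.5% and 55.9% in unlesioned, 47.0%, 48.7% and 55.4% in lesioned saline and 43.9%, 48.9% and 55.8% in L-DOPA libraries. Its CpGs nevertheless ran from 6.93% to 93.4%. A tile of 26 CpGs, chr10:75191501-75191750, kept all 21 libraries within 7.51 points. Unlesioned libraries had 43.6%, 44.8% and 48.6%, lesioned saline libraries 42.6%, 47.4% and 50.1%, and L-DOPA libraries 44.4%, 46.6% and 49.6%. In this tile neighbouring CpGs differed sharply and both strands gave the same pattern: base 100 was at 86.5% on the forward and 85.9% on the reverse strand, base 87 at 18.1% and 23.0%, and base 47 at 64.9% and 67.3%. The steadiest tiles also included chr3:170576751-170577000, with group means of 51.1% ± 2.82, 52.8% ± 2.90 and 52.0% ± 2.17 in unlesioned, lesioned saline and L-DOPA libraries. For chr3:170426501-170426750 they were 49.0% ± 3.09, 47.1% ± 2.27 and 49.3% ± 4.41, and for chr15:37163501-37163750 (23 CpGs) 49.2% ± 5.76, 48.9% ± 4.52 and 51.7% ± 4.49. In all 6 steadiest tiles, the Alpk3 tile included, at least one CpG was under 25% and one over 75%.

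**Figure D3:**
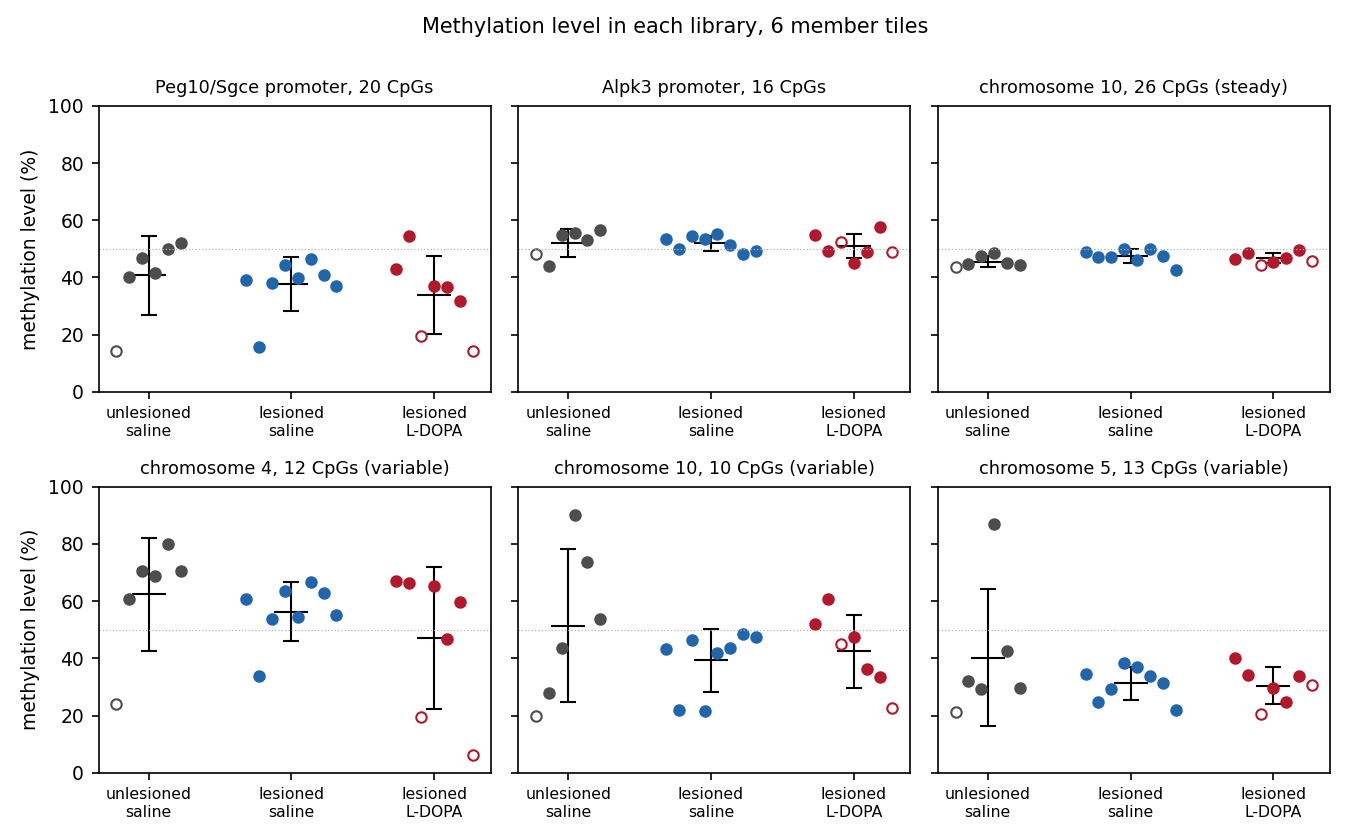
Methylation level (vertical axis, %) of 6 tiles in each library by group (6 unlesioned saline, 8 lesioned saline, 7 lesioned L-DOPA; points in replicate order, open where the library is unlesioned saline 1, L-DOPA 3 or L-DOPA 7, bars are mean ± SD). The Alpk3 and chromosome 10 (26 CpGs) tiles stay near 50% in all libraries, the open points are low in the Peg10/Sgce and chromosome 4 tiles, and in the 2 lower right tiles unlesioned saline 4 is highest at 90.0% and 86.9%.

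The most variable tiles with at least 100 reads in each library fell into patterns set by single libraries. In chr4:165646251-165646500 (12 CpGs) unlesioned libraries had 24.1%, 69.6% and 79.9%, lesioned saline libraries 33.7%, 57.9% and 66.6%, and L-DOPA libraries 6.12%, 59.8% and 66.9%. The low values belong to unlesioned saline 1, lesioned saline 2, L-DOPA 3 (19.4%) and L-DOPA 7, as at Peg10 and Sgce. Its reads were at 1.19% on the forward strand and 90.9% on the reverse strand. The CpG at base 191 was at 2.49% over 1366 forward reads and at 92.5% over 3914 reverse reads. The share of the tile's reads on the reverse strand was 9.06% in L-DOPA 7, 29.5% in L-DOPA 3, 36.3% in unlesioned saline 1 and 39.9% in lesioned saline 2, against 51.3% to 83.6% in the other 17 libraries. Reverse-strand reads themselves were at 56.3%, 61.8%, 64.3% and 83.3% in those 4 libraries and at 87.1% to 96.3% in the others. This is the one intermediate tile with one strand under 20% and the other over 80%. Over the 2370 CpGs of intermediate tiles with 100 or more lesioned reads on both strands, the median gap between strands was 6.24 points, 12.4% differed by more than 20 points, and 6 were under 20% on one strand and over 80% on the other.

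The same 4 libraries were low in chr18:24496501-24496750, where unlesioned saline 1 was at 27.3%, lesioned saline 2 at 27.1%, L-DOPA 3 at 27.6% and L-DOPA 7 at 6.36%, and the other libraries at 40.4% to 76.0%. In chr14:8231251-8231500 the same libraries were at 22.3%, 31.8%, 19.5% and 13.4%, and lesioned saline 3 was as low at 31.5%. A different pattern was seen in 3 other tiles, where unlesioned saline 4 stood highest. In chr10:88285501-88285750 (10 CpGs) it was at 90.0%, unlesioned saline 5 at 73.6% and the other 19 libraries at 19.8% to 60.8%. In chr5:130071501-130071750 (13 CpGs) it was at 86.9% and the other 20 libraries at 20.5% to 42.4%. In chr9:6514001-6514250 it was at 92.8% and the others at 29.8% to 78.0%. The chromosome 10 tile of 10 CpGs had CpGs of 33.1% to 48.4% in the lesioned libraries.

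Some of the tiles touched one another. Of the 1148 tiles, 115 (10.02%) touched another one, in 53 runs: 45 of 2 tiles, 7 of 3 and 1 of 4. Most tiles beside an intermediate tile had no measurement in all 21 libraries. Of the 752 that had, 124 (16.5%) were intermediate dense tiles themselves, against 3.23% of all dense tiles and 0.820% of all tiles measured in every library. The 752 were not limited to dense tiles, and a touching pair was counted from both sides. Only 5 runs were made of steady tiles alone. With a measured tile on both sides within 2 tiles, 180 tiles could be set in context: in 114 both sides were at 20 to 80%, in 35 at least one side was under 20%, among them 4 with both sides, in 1 both were over 80%, and 2 stood between a side under 20% and a side over 80%.

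The longest run, chr12:15403001-15404000 (rn5, 1000 bp), held 67 CpGs in 4 tiles. Its mean level was 49.7%, 54.8% and 58.5% (lowest, median, highest) in unlesioned, 50.7%, 52.9% and 58.1% in lesioned saline and 47.2%, 55.4% and 59.7% in L-DOPA libraries. The group means were 54.3% ± 3.55, 54.3% ± 2.96 and 54.3% ± 4.01, so the groups did not separate. Its first tile had a median of 60.9% in unlesioned libraries and its last a median of 37.4%. In the lesioned libraries the measured tile to its left was at 66.5% and the one to its right at 32.3%. CpG means in it ran from 19.9% to 88.2%.

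A run on chromosome 6, chr6:141410001-141410750, had 63 CpGs and group means of 44.5% ± 5.96, 44.2% ± 3.35 and 46.4% ± 5.85 in unlesioned, lesioned saline and L-DOPA libraries. One on chromosome 11, chr11:71396251-71397000 (43 CpGs), was at 50.3% ± 3.07, 48.2% ± 1.10 and 51.3% ± 3.78, and 2 of its 3 tiles were steady. One on chromosome 3, chr3:1826001-1826750 (42 CpGs), was at 56.5% ± 3.82, 55.5% ± 5.39 and 50.8% ± 4.01. One on chromosome 7, chr7:12433501-12434250 (34 CpGs), was at 46.2% ± 10.2, 50.3% ± 6.32 and 46.4% ± 7.59, and its middle tile had as few as 20 reads in a library. In all 5 of these runs the lowest and the highest CpG mean lay more than 60 points apart.

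**Figure D4:**
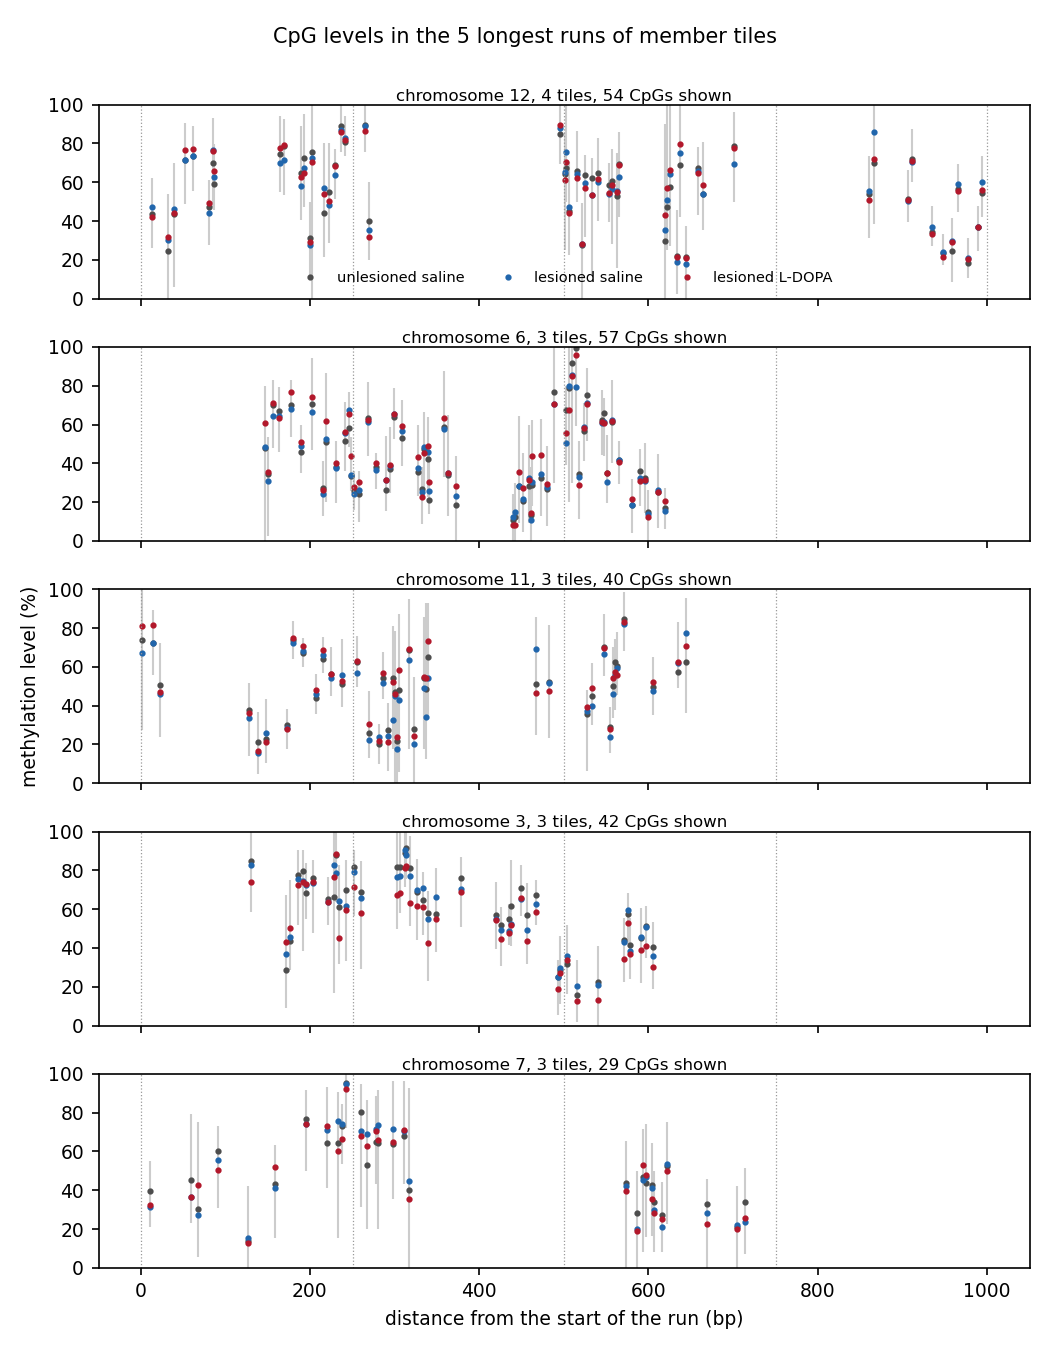
CpG methylation (vertical axis, %) against distance from the start of the run (horizontal axis, bp) in the 5 longest runs, for CpGs measured in 15 or more libraries; points are group means (unlesioned saline, lesioned saline, lesioned L-DOPA), grey lines join the lowest and highest library, and dotted lines are tile limits. Levels differ widely from CpG to CpG within each run, and no run is flat at 50%. Runs of equal length were ranked by their number of CpGs.

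The libraries differed in depth and in where their reads fell. Total coverage was 5.96e+07 to 1.64e+08 counts per library, median coverage of a cytosine 37 to 70 reads, and the median intermediate tile held 317 to 930.5 reads per library. In unlesioned saline 1, L-DOPA 3 and L-DOPA 7, reads were most concentrated in CpG-dense tiles: the median reads of tiles with 15 or more CpGs were 22.1 to 24.1 times those of tiles with 2 or 3 CpGs, against 10.6 to 18.01 times in the other 18 libraries. The mean level over the 1148 tiles was 38.4 to 40.2% in these 3 libraries and 43.8 to 54.9% in the other 18. Lesioned saline 2, at 43.8%, was the next lowest, at a read ratio of 16.96. One of the 3 was the lowest library in 778 tiles (67.8%), although they are 14.3% of the libraries. The 3 averaged lower than the 18 in 1086 tiles (94.6%), with a median difference of -9.92 points, and of -11.3 points in tiles of 2 to 7 CpGs at the same level. In dense tiles under 35% the mean level was 2.69 to 2.93% against 2.75 to 3.32%, and in dense tiles over 65% it was 82.95 to 83.4% against 85.6 to 88.6%. Without the 3 libraries, 21.7% of the 1148 tiles were steady (249) and 310 variable (27.0%). On the same tiles, leaving out any library can only raise or keep the first count and lower or keep the second. The direction of these changes is therefore no result. The part of this read concentration in the results below was not tested.

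**Figure D5:**
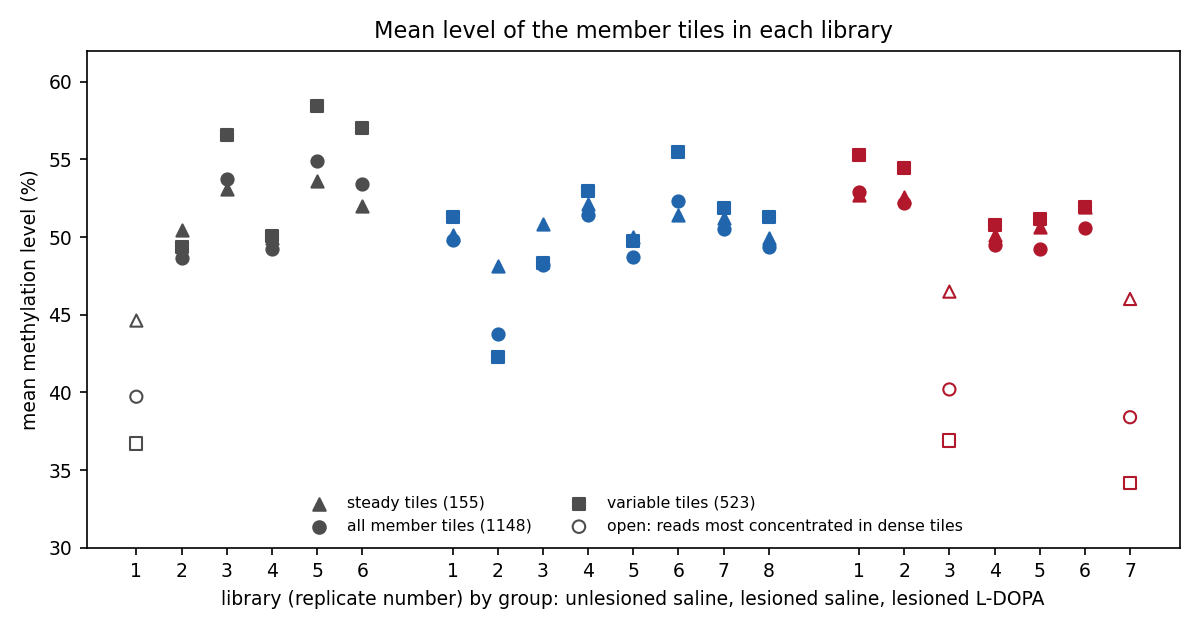
Mean methylation level (vertical axis, %) over the steady, all and variable intermediate dense tiles in each library (horizontal axis, replicate number within unlesioned saline in grey, lesioned saline in blue and L-DOPA in red). Open symbols are the 3 libraries with the most concentrated reads, which lie lowest for all 3 sets of tiles, by most in the variable tiles (34.1 to 36.9%).

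The comparison of L-DOPA with lesioned saline asks whether the drug changed methylation after the lesion, and it uses no library whose level chose the tiles. Averaged over the tiles, lesioned saline libraries had 43.8%, 49.6% and 52.3% as lowest, median and highest, with a mean of 49.3% ± 2.60 (SD, n = 8). L-DOPA libraries had 38.4%, 49.5% and 52.9%, with a mean of 47.6% ± 5.83 (n = 7). The groups overlap. The deposited libraries carry 2 runs of library numbers: in the first, lesioned saline averaged 49.04% ± 3.01 (n = 6) and L-DOPA 48.4% ± 7.14 (n = 3), and in the second 49.97% ± 0.816 (n = 2) and 46.9% ± 5.71 (n = 4). All 1148 tiles entered a quasi-binomial fit over 180850 tiles, and 0 passed an adjusted p of 0.05, as did 0% of all tested tiles. At an unadjusted p under 0.05 by this fit there were 46 (4.01%), against 3.83% of all tested tiles. Lower with L-DOPA were 37 (3.22%), against 2.3% of all tested tiles, and higher were 9 (0.784%), against 1.53%. Limma on log2 odds called 0 and had 17 (1.48%) under that p, against 4.01% of all tested tiles. A binomial model without overdispersion, with at least 5 points of difference, called 190 of the 1148 (16.6%), against 6.31% of all tested tiles. The quasi-binomial share is near the background and is no result about these tiles. The median difference was -1.68 points with 825 tiles (71.9%) lower, against -0.256 points over all tested tiles. Without the 3 libraries of concentrated reads the direction turned: the L-DOPA mean became 50.9% ± 1.62 (n = 5), the median difference 1.52 points, and 349 tiles (30.4%) were lower. This setting takes low libraries out of the L-DOPA group only, while lesioned saline 2, the lowest of its group at 43.8%, stayed in. The comparison was not run with lesioned saline 2 and the 3 libraries left out together. A quasi-binomial fit without the 3 libraries used 1126 tiles chosen again. In it 77 (6.84%, 62 of them higher) had an unadjusted p under 0.05, against 4.35% of all tested tiles, and 0 were called, as were 0% of all. Among steady tiles the median difference was -0.491 points in all libraries. A tile was called steady by the levels of every library, L-DOPA and lesioned saline included. That choice limits beforehand how far the 2 groups can differ, so this value is a description.

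The tiles with the smallest p in this comparison did not pass the adjusted threshold (adjusted p of 1 for each by the quasi-binomial fit). In chr7:12609751-12610000 (8 CpGs) lesioned saline libraries had 35.4%, 47.9% and 62.1% and L-DOPA libraries 26.9%, 33.8% and 43.4%, a difference of -15.3 points (SE 3.59). In chr12:39142751-39143000 (9 CpGs) lesioned saline libraries had 54.8%, 73.5% and 80.2% and L-DOPA libraries 27.0%, 52.6% and 72.9%, a difference of -17.9 points (SE 6.30). Higher with L-DOPA were chr10:84731751-84732000 (10 CpGs), with 34.7%, 39.6% and 44.8% in lesioned saline against 40.4%, 47.2% and 50.9%, by 6.29 points (SE 2.13), and chr2:206303751-206304000 (8 CpGs), with 24.0%, 44.1% and 61.7% against 48.3%, 57.1% and 72.3%, by 17.2 points (SE 5.33). In each of the 4 the ranges of the groups overlap.

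Lesioned saline was compared with unlesioned saline to see the effect of the lesion, and here the unlesioned libraries are those that chose the tiles, so the counts are a description. Unlesioned libraries averaged 39.7%, 51.3% and 54.9% (lowest, median, highest; mean 49.9% ± 5.61, n = 6). Of the 1148 tiles 0 were called, as of all tested tiles (0%), and 29 (2.53%) had an unadjusted p under 0.05, against 3.42% of all tested tiles. Of the 29, 24 were lower (2.09% of the 1148, against 2.22% of all tested tiles) and 5 higher (0.436%, against 1.2%). Limma called 0 and had 10 (0.871%), against 3.69% of all, and the binomial model called 145 (12.6%), against 5.44%. The median difference was -0.605 points. Without the 3 libraries it was -2.44 points with 877 tiles (76.4%) lower. This setting takes out unlesioned saline 1, the lowest of its group, and keeps lesioned saline 2, the lowest of the other at 43.8%. The part of that choice in the direction was not tested. With tiles chosen again from the 5 remaining unlesioned libraries, 175 of 1126 (15.5%) then had an unadjusted p under 0.05, 171 of them lower after the lesion, against 6.64% of all tested tiles, and 0 were called, against 0.000606% of all tested tiles. The unlesioned libraries all belong to one of the 2 runs of library numbers, which 6 of the 8 lesioned saline libraries do not share. With the run as a term, or with libraries of the second run alone, 0 tiles were called in each of the 3 comparisons, as in the fit without it.

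The tile chr2:206303751-206304000 recurred here, with 52.2%, 60.5% and 84.8% in unlesioned and 24.0%, 44.1% and 61.7% in lesioned saline libraries, a difference of -21.2 points (SE 6.52, adjusted p of 1 by the quasi-binomial fit). It held as few as 34 reads in a library, and its 2 comparisons share the lesioned saline libraries. In chr14:83193751-83194000 (9 CpGs) the values were 48.3%, 51.8% and 63.9% against 31.0%, 39.0% and 53.0%, by -11.6 points (SE 3.65). Higher after the lesion were chr20:9457501-9457750 (13 CpGs), by 8.12 points (SE 2.87), from 38.2% ± 6.04 to 46.4% ± 4.13, and the steady tile chr10:62388001-62388250 (20 CpGs), by 4.57 points (SE 1.39), from 44.8% ± 2.97 to 49.4% ± 1.90. None of these passed the adjusted threshold.

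Between L-DOPA and unlesioned saline, which differ in both lesion and drug, 0 tiles were called against 0% of all tested tiles. Here too the levels of the unlesioned libraries chose the tiles, so the counts are a description. At an unadjusted p under 0.05 by the quasi-binomial fit there were 120 (10.5%), beside 6.25% of all tested tiles. Lower were 108 (9.41%), against 4.62% of all tested tiles, and higher were 12 (1.05%), against 1.63%. Limma called 0 and had 28 (2.44%), against 5.02% of all, and the binomial model called 285 (24.8%), against 10.2%. The median difference was -2.13 points, and -0.818 points without the 3 libraries, where 0 of 1126 tiles were called (0.000606% of all) and 100 (8.88%) had an unadjusted p under 0.05, against 5.95% of all tested tiles. The smallest adjusted p by the quasi-binomial fit was 0.465, for chr9:96885001-96885250 (8 CpGs). Unlesioned libraries had 47.1%, 55.0% and 65.5% there and L-DOPA libraries 37.5%, 43.4% and 46.9%, with no overlap and a difference of -11.9 points (SE 2.80). The tile was named for its small p, so that separation is a description. In chr16:71333751-71334000 (11 CpGs, as few as 20 reads) the means were 50.6% ± 6.75 and 34.96% ± 18.9. Higher were chr10:90172251-90172500, by 4.76 points (SE 1.73), and chr8:98234251-98234500, by 6.28 points (SE 2.18).

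By the unlesioned levels that the rule used, the tile nearest inside 35% was chr1:221245251-221245500, at 35.01%, which holds the start of Eps8l2, an actin-binding protein of hair-cell bundles, and the nearest outside was chr2:164592751-164593000 at 34.9%. At the upper end chr15:92969751-92970000 was the nearest inside and chr12:52817001-52817250 the nearest outside; lesioned saline libraries averaged 69.2% and L-DOPA libraries 69.9% in the latter. The share of dense tiles that were intermediate was lowest on chromosome 4 (38 of 1835, 2.07%) and highest on chromosomes 12 (81 of 1450, 5.59%) and 20 (64 of 1176, 5.44%).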

How the data were processed

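DNA methylation was measured by bisulfite sequencing in 21 samples of rat dorsal striatum. Per the labels' protocols, reads of 50 bp were single-end, and the submitters' processing notes name Trim Galore 0.3.7, Bismark 0.13.0, SAMtools 0.1.19, methylKit 0.9.2 and rn5. The deposited files give each cytosine's coverage as a count of reads, at least 10, and the percent of C and of T, as the authors computed them. Coverage and percent gave whole methylated counts for 100% of cytosines. In a library, 36.4 to 58.8% of cytosines had over 50 reads, more than positional de-duplication of such reads would leave on a strand, so counting errors may be too small. The labels do not name the animal behind a sample, so p-values measure the spread between samples.

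Both strands of a CpG were joined in 250 bp tiles. A quasi-binomial logistic model of 3 groups was fitted to the counts of 180850 tiles with at least 2 CpGs in 5 or more libraries of each group and a pooled level of 1 to 99%. The dispersion (median 3.31, never below 1) was moderated in the way of limma's squeezeVar. Adjusted p-values follow Benjamini and Hochberg. Differences are between unweighted group means, in percentage points. The test was tested on simulated data. Python 3.11.15, numpy 2.4.6, scipy 1.17.1, R and limma were used.

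The tiles and gene lists were chosen with earlier results of these data known. Named tiles are those of the 5 longest runs, the 6 steadiest outside them and the 6 most variable with 100 or more reads in each library. Runs of 3 tiles numbered 7, and among these the runs with the most CpGs were taken. Also named are the 2 of smallest p per direction and comparison, and those next to the limits. Promoter tiles, evenly intermediate tiles, the runs between the Gnas promoters and the extreme chromosomes are named besides. The naming rule allowed genes only from an rn5 annotation, which was not used here. Genes were instead placed by matching at least 8 listed CpGs to the CpG spacing of a RefSeq promoter with at most 10% of listed CpGs unmatched, a step added after the data were seen. Alternatives varied reads per cytosine, tile limits, averaging, CpG number, class limits, libraries and the test.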

Additional observations from a re-analysis of the deposited data

Results flagged for a closer look

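A library stood apart from the rest of its group, by Dixon's test at the 95% level, in 12 of 141 sets of values. About 1 in 20 sets would do so by chance if they were independent and not selected. Many of these sets are tiles named for their range, steadiness or small p in the same libraries. That rate is therefore no measure for the 12, which are a description. At the Peg10 and Sgce tile these were unlesioned saline 1 at 14.3% (next 40.1%) and lesioned saline 2 at 15.6% (next 37.1%). In chr4:165646251-165646500, the tile with opposite strands, the same 2 libraries stood low, at 24.1% (next 60.7%) and 33.7% (next 53.6%). In chr5:130071501-130071750 unlesioned saline 4 was high at 86.9% (next 42.4%), and in chr14:83193751-83194000 it was high at 63.9% (next 53.4%).

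Among the steadier tiles, unlesioned saline 4 at 55.9% and lesioned saline 3 at 55.4% stood above their groups in chr5:150706251-150706500. In the runs, lesioned saline 6 was high at 62.1% in chr6:141410001-141410250, L-DOPA 3 low at 31.2% in chr11:71396501-71396750, and unlesioned saline 1 low at 36.3% in chr7:12433501-12433750. In chr8:98234251-98234500 lesioned saline 8 was low at 41.2%.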

How the results depend on the processing

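The number of intermediate dense tiles was 1148 and became 496 with at least 10 CpGs and 756 with a level of 40 to 60%; steady tiles, 155, became 88 with at least 10 CpGs, 433 with limits of 30 to 70%, 250 of 1126 tiles chosen again without the 3 libraries of concentrated reads (249 of the 1148), and 285 when lesioned saline 2 was left out as well, a setting chosen after the data were seen. Variable tiles, 523, became 340 with at least 20 reads per cytosine, 191 with at least 10 CpGs, 235 with a range over 40 points, 296 of the tiles chosen again without the 3 libraries (310 of the 1148) and 250 without lesioned saline 2 too. Tiles in runs, 115, became 63 with at least 10 CpGs and 63 with a level of 40 to 60%. A binomial model without overdispersion, with at least 5 points of difference, called 190 tiles between L-DOPA and lesioned saline, 145 between lesioned saline and unlesioned, and 285 between L-DOPA and unlesioned; the other settings called 0. Leaving out each library in turn, with tiles chosen again, gave 156 to 186 steady and 456 to 527 variable tiles, and 0 calls among the 1148; group means over the tiles chosen again were 49.9 to 50.0% for unlesioned libraries, whose level the rule holds near 50%, 47.5 to 50.3% for lesioned saline and 45.9 to 49.1% for L-DOPA libraries. With the replicate number as a block, 0 tiles were called in each comparison, as without it. Over 19 pairs of libraries with the same number the deviations correlated at -0.398 to 0.351, over 0.1 in 5 pairs, and 4 of 20 libraries correlated best with their own number, so the numbers were not taken to pair the samples. No named difference changed sign in 264 values tried, which came from leaving out each library in turn and from limma. The tiles were named for their small p, and leaving out a library of the group not compared cannot change a difference. The kept signs are therefore a description. Leaving out the 3 libraries of concentrated reads together was not tried on these tiles. Depth limits tiles with few reads, down to 20 in a library.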
